A study of Homo sapiens with 6 samples.

Results

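The genes described here are 10 genes of the YAP and TEAD pathway: the coactivators YAP1 and WWTR1, the DNA-binding factor TEAD1, and 7 genes that YAP and TEAD are known to activate, CCN1, CCN2, ANKRD1, AMOTL2, LATS2, AXL and THBS1. They were chosen by symbol, and all 10 were found among the 22354 loci of the deposited count table. RNA was sequenced from HTori-3.1, an immortalised line of human thyroid follicular cells, in 3 libraries labelled control (genotype wild type) and 3 labelled BMAL1 knockout. For the knockout, cells were infected with lentivirus carrying Cas9 and an sgRNA against BMAL1, selected with puromycin and taken as single clones. The number of clones behind the 3 libraries is not given in the sources used here, nor what the control cells carried. All 6 samples received etoposide, a topoisomerase inhibitor that breaks DNA and induces senescence, at 2 μM, so no untreated cells enter the comparison. The treatment field gives 12 h of exposure, whereas the treatment protocol gives 24 h. Whether the replicates were separate cultures is not stated, so the p-values measure only the spread between these libraries.

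The controls held 26893063, 27029060 and 28513703 counts and the libraries labelled BMAL1 knockout 43148059, 29860233 and 43563391 counts, the latter named knockout replicates 1, 2 and 3 after their label. Levels are given as CPM, counts scaled to a common library total by the TMM method. Differences are log2 fold changes of the libraries labelled BMAL1 knockout over control, tested by the quasi-likelihood method of edgeR. A gene is called when its p was under 0.05 after Benjamini-Hochberg adjustment, made over all 14860 loci tested. The comparison addresses how expression differs between the labelled groups in etoposide-treated thyroid cells. Since the handling of the controls is not given, effects of BMAL1 targeting, of selection and of the clones taken cannot be told apart.

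In the Hippo pathway, the kinases STK3 and STK4 activate the kinases LATS1 and LATS2, which phosphorylate YAP1 and WWTR1 (the gene of TAZ) and keep them out of the nucleus. Where these kinases are inactive, as in spread cells on a stiff matrix, YAP1 and WWTR1 enter the nucleus, bind TEAD factors and activate genes of the matrix, the cytoskeleton and growth. Several of those genes, LATS2 and AMOTL2 among them, restrain YAP1 in turn. Much of this control acts on the phosphorylation and location of the proteins, which RNA counts do not measure.

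The transcript of the targeted gene went against its label. BMAL1 (chr11:13276652-13387266, forward strand of hg38), a core transcription factor of the circadian clock, was measured by 304, 326 and 409 counts in the controls and by 764, 603 and 860 counts in the libraries labelled BMAL1 knockout, or 11.3, 12.2 and 14.6 CPM against 17.9, 19.8 and 19.4 CPM. Every library of the second group lay above every control, and the log2 fold change was 0.58 with a standard error of 0.11 (adjusted p = 0.0204, edgeR with Benjamini-Hochberg adjustment). The adjusted p was 0.0896 without control replicate 1, 0.113 without control replicate 2, 0.0749 without knockout replicate 2 and 0.0598 without knockout replicate 3, at log2 fold changes of 0.50 to 0.56. An exchange of the group labels and an edited transcript that persists cannot be told apart by these counts, so each direction is given as labelled. An exchange would turn every direction given here. Protein was not analysed here. The methods name a Western blot as the check of the knockout in the selected clones.

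Knockout replicate 1 stood apart from the other knockout libraries. Its counts differed from those of knockout replicates 2 and 3 by 31 and 45 times the variance of counting alone, whereas replicates 2 and 3 differed by 7.43 times that variance and the controls by 5.41 to 14.5 times. Levels also followed the GC content of the transcripts differently: an increase of 10 percentage points in GC went with a log2 deviation of -0.11 in knockout replicate 1 and -0.08 in control replicate 3, and with 0.04 to 0.06 in the other 4 libraries. Where leaving it out changed the call or the direction of 1 of the 10 genes, the value without it is given. Removal of each library's GC trend, an alternative chosen after seeing the data, is named where it changed the call of a gene described here. With that trend removed, 498 loci were called higher and 610 lower, against 161 and 212 without this step. Its calls therefore came more freely over all loci.

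The cells were checked against markers of their labelled type. Of the thyroid follicular markers, the transcription factors PAX8, FOXE1 and HHEX were above 1 CPM, and PAX8, the most abundant, lay between 92.5 and 151 CPM. TG and TSHR, which mark differentiated follicular cells, were below 1 CPM in all 6 libraries, and NKX2-1 and DUOXA2 had 0 counts. PAX8 was measured at 124, 125 and 151 CPM in the controls and at 92.5, 106 and 130.2 CPM in the libraries labelled BMAL1 knockout, which overlapped. FOXE1 was measured at 47.5, 47.7 and 48.8 CPM in the controls and at 36.2, 42.1 and 41.6 CPM in the libraries labelled BMAL1 knockout, which did not overlap. FOXE1 was not called, at a log2 fold change of -0.26 (95% interval -0.45 to -0.08, adjusted p = 0.139 from edgeR with Benjamini-Hochberg adjustment).

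Among the 10 genes, THBS1 fell, to 0.746 of the control level (log2 standard error 0.07, n = 3 libraries a group), and none rose past the threshold. Rounded to 2 decimals, the log2 fold changes of 7 genes lay within 0.10 of 0, those of the factors YAP1, WWTR1 and TEAD1 and of the targets CCN1 and CCN2 among them. AXL lay as far below the controls as ANKRD1 lay above them, and neither passed the adjusted threshold. Of the 14860 loci tested, 373 (2.51%) were called, 161 higher (1.08%) and 212 lower (1.43%), beside 1 of the 10 genes called lower and 0 called higher by edgeR. Scaled by library size alone, 185 loci were called higher and 155 lower, so that 54.4% of calls were higher in place of 43.2%. These totals moved with single libraries: without control replicates 1, 2 and 3 they were 83 higher and 83 lower, 46 higher and 67 lower and 60 higher and 81 lower, and without knockout replicates 1, 2 and 3 293 higher and 340 lower, 66 higher and 96 lower and 102 higher and 147 lower. With the GC trend removed they were 498 higher and 610 lower. At an unadjusted p under 0.05, 1 of the 10 genes was higher and 2 were lower, beside 16.9% of all loci in either direction. DESeq2 called 0 of the 10 genes higher and 2 lower, limma-voom 0 higher and 1 lower. Over all loci, DESeq2 called 256 higher and 378 lower of 19459 fitted, and limma-voom 102 higher and 153 lower of 14860. The counts that DESeq2 and limma-voom gave for the lists below are to be read beside these totals. The groups did not overlap for 1 gene that lay higher, beside 11.8% of all loci, and for 2 that lay lower, beside 11.5% of all loci. The median log2 fold change was -0.04 over the 10 genes and 0.01 over all loci tested. In bulk samples, fewer cells of a type and less RNA per cell cannot be told apart.

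**Figure D1:**
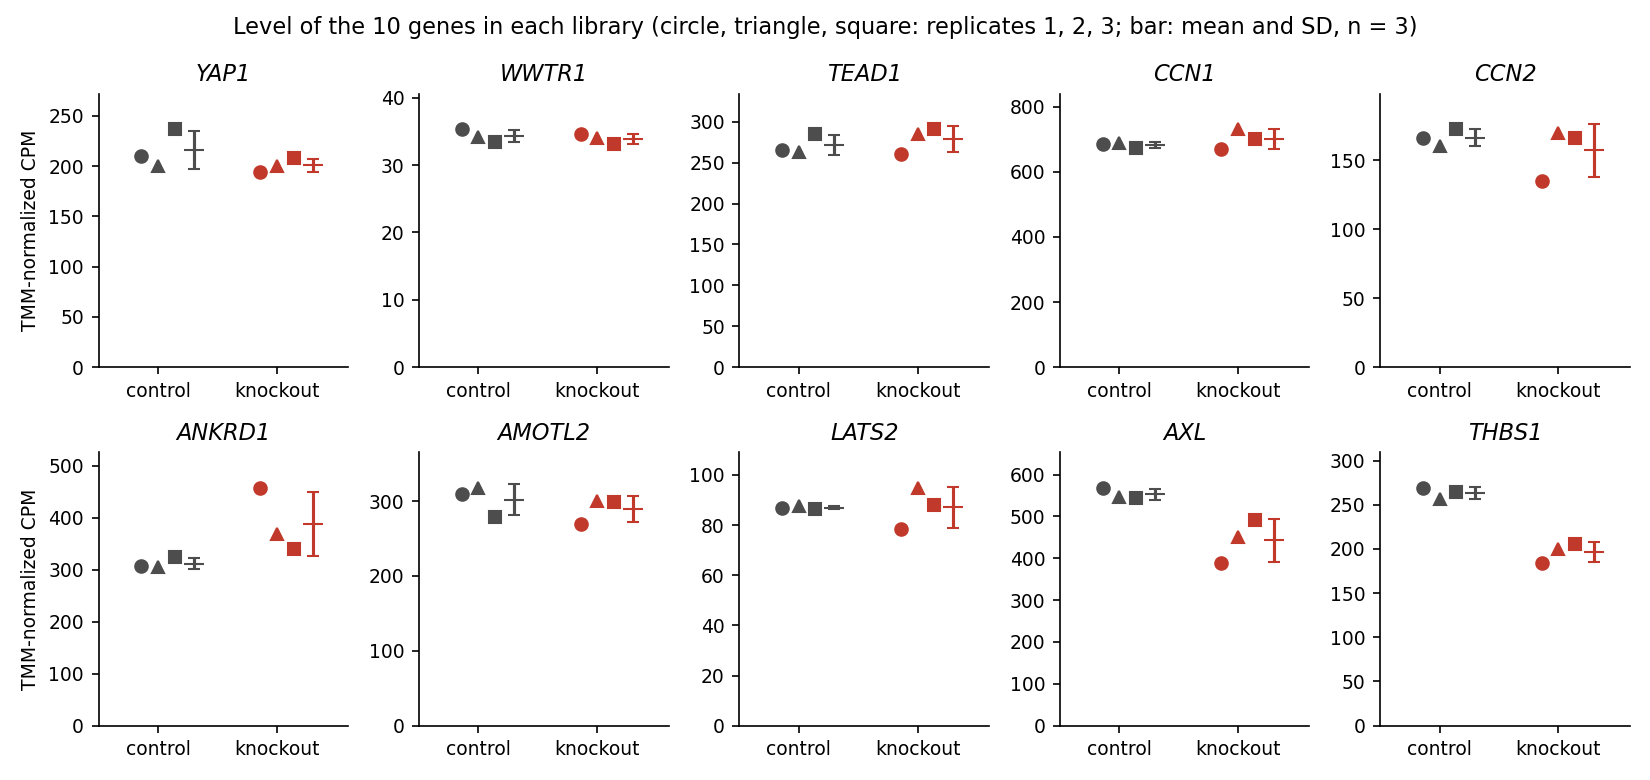
TMM-normalized CPM of the 10 genes in each library, with the mean and SD of each group (n = 3); every axis starts at 0, and circles, triangles and squares mark replicates 1, 2 and 3. The groups separate for ANKRD1, AXL and THBS1 and overlap for the other 7 genes.

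The coactivators were not called. YAP1 (chr11:102110447-102233424, forward strand) was measured at 209.9, 200.2 and 237 CPM in the controls and at 194, 199.8 and 208 CPM in the libraries labelled BMAL1 knockout. The groups overlapped, with control replicate 3 the highest of the 6. YAP1 had a log2 fold change of -0.10, with a 95% interval of -0.28 to 0.07 (adjusted p = 0.560, edgeR with Benjamini-Hochberg adjustment). That fold change ran from -0.15 to -0.03 with 1 library left out. WWTR1 (chr3:149517235-149736714, reverse strand), which encodes the YAP1 paralog TAZ, was measured at 35.3, 34.2 and 33.5 CPM in the controls and at 34.6, 34.1 and 33.1 CPM in the libraries labelled BMAL1 knockout. These values also overlapped. The log2 fold change of WWTR1 was -0.02 (95% interval -0.19 to 0.16), and 0.01 when libraries were scaled by their totals alone, so its direction is not set.

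Per kilobase of exon, YAP1 exceeded WWTR1 in every library. The ratio was 7.86, 7.74 and 9.35 in the controls and 7.43, 7.76 and 8.30 in the knockout libraries. These ratios overlapped between groups (two-sided exact permutation test of 3 against 3 libraries, p = 0.6, where 0.1 is the smallest p the test allows). Of the 40 tested neighbours of WWTR1, 20 on each side, 34 had a positive log2 fold change, with a median of 0.18. WWTR1 itself differed from that median by -0.20, a description of the region with no test.

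TEAD1 (chr11:12674421-12944737, forward strand), which carries YAP1 and WWTR1 to DNA, was measured at 266, 263 and 286 CPM in the controls and at 261, 284 and 291 CPM in the libraries labelled BMAL1 knockout. The lowest and the highest value both came from the latter group. TEAD1 had a log2 fold change of 0.04 (95% interval -0.13 to 0.20, adjusted p = 0.851 from edgeR with Benjamini-Hochberg adjustment). TEAD1 is a near neighbour of the targeted gene: 331915 bases separate its end from the start of BMAL1, and RASSF10 is the 1 gene of the count table between them.

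**Figure D2:**
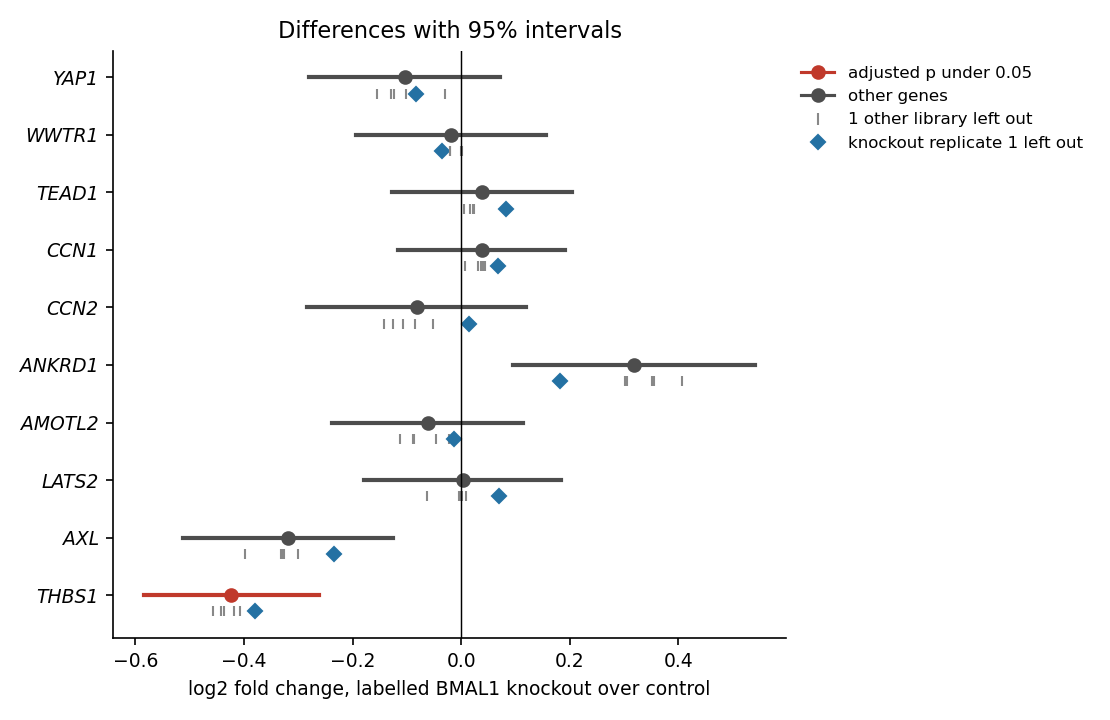
Log2 fold change of each gene, the libraries labelled BMAL1 knockout over control, with the 95% interval from edgeR; small marks give the value after leaving out 1 library, with diamonds for knockout replicate 1. THBS1 (-0.42) is the gene called, the intervals of AXL and ANKRD1 also leave out 0, and the diamond of ANKRD1 lies at 0.18.

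The promoters were searched for letters that TEAD factors are known to bind. RefSeq windows of GRCh38.p14 were found for 8 of the 10 genes, 11 windows in all, since AMOTL2, AXL and WWTR1 have 2 each; CCN1 and TEAD1 are named only. The 250 bases before each start were searched on both strands for GGAATG (TEAD), CACGTG (the E-box bound by BMAL1 with its partner CLOCK), TGANTCA (AP-1) and the CArG box of SRF. Of 35116 windows of that length, 11.9% held GGAATG, 6.34% held CACGTG, 6.57% held TGANTCA and 1.16% held a CArG box. GGAATG was found in 6 of the 11 windows, for 6 of the 8 genes searched (YAP1, CCN2, ANKRD1, AMOTL2, AXL and THBS1), CACGTG for YAP1, TGANTCA for ANKRD1 and the CArG box for 0. A match is a description of the letters, not a site or a cause.

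Windows of 4 genes are printed because they set side by side a target with 3 TEAD motifs that was not called (CCN2), 1 with 2 motifs that lay higher (ANKRD1), the target that fell (THBS1) and the coactivator whose window holds an E-box (YAP1). All run 5′ to 3′ on the strand of the gene, in lower case with the motif matches in capitals. They are chr6:131951373-131951622 on the reverse strand for CCN2, chr10:90921088-90921337 on the reverse strand for ANKRD1, chr15:39580829-39581078 on the forward strand for THBS1 and chr11:102110197-102110446 on the forward strand for YAP1.
CCN2: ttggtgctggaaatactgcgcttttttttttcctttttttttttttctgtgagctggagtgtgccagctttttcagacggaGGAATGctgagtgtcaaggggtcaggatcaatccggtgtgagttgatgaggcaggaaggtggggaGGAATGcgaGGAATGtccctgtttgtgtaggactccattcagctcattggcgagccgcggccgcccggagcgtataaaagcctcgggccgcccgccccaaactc
ANKRD1: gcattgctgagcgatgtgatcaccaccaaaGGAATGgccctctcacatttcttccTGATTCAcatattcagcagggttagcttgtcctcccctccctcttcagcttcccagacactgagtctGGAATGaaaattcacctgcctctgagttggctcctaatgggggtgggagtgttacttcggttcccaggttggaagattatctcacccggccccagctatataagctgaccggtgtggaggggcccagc
THBS1: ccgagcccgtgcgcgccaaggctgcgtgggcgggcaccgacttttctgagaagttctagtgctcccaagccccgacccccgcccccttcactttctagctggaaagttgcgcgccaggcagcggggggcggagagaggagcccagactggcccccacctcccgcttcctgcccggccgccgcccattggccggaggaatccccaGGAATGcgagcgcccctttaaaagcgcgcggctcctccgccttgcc
YAP1: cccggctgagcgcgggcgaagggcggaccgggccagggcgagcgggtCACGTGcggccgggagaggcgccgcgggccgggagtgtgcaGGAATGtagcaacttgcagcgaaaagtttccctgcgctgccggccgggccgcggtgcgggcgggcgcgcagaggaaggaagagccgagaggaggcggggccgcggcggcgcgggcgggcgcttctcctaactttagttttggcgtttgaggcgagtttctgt

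In CCN2, the motifs began 169, 104 and 95 bases before the start. In ANKRD1, GGAATG began 220 and 128 bases before the start, with the AP-1 letters between them at 195 bases. The match in THBS1 began 46 bases before the start, nearer than any other match found in the 11 windows. In YAP1, the E-box began 203 and GGAATG 162 bases before the start.

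**Figure D3:**
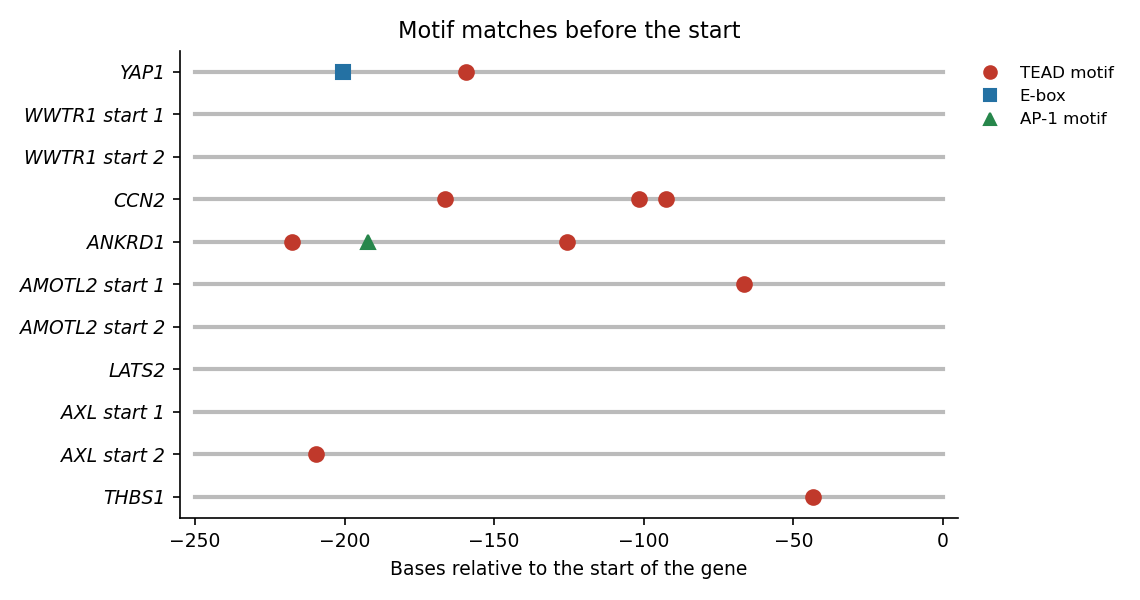
Position of motif matches in the 250 bases before the start of the genes, in bases relative to the start; each grey line is 1 window. CCN2 holds 3 TEAD motifs, ANKRD1 2 and an AP-1 motif, and THBS1 1 close to its start, while the windows of LATS2 and WWTR1 hold none of the motifs plotted.

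The secreted CCN proteins are targets often read as YAP activity, and neither gene was called. CCN1 (chr1:85580761-85584589, forward strand), a matricellular ligand of integrins, was measured at 686, 688 and 672 CPM in the controls and at 668, 731 and 702 CPM in the libraries labelled BMAL1 knockout. The groups overlapped, with the lowest and the highest value both in the second group. Its log2 fold change was 0.04 (95% interval -0.12 to 0.19, adjusted p = 0.839 from edgeR with Benjamini-Hochberg adjustment). That interval runs from a difference of -7.68% to one of 14.2%.

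CCN2 (chr6:131948176-131951372, reverse strand), which encodes connective tissue growth factor, was measured at 166, 161 and 173 CPM in the controls and at 135, 170.3 and 166 CPM in the libraries labelled BMAL1 knockout. Knockout replicate 1 was the lowest of the 6 libraries and the other 2 of its group lay among the controls. The log2 fold change was -0.08 (95% interval -0.28 to 0.12, adjusted p = 0.712 from edgeR with Benjamini-Hochberg adjustment), and without knockout replicate 1 it was 0.01. Of 40 tested neighbours of CCN2, 13 had a positive log2 fold change, with a median of -0.10. The genes whose profile over the 6 libraries was most like that of CCN2, among 10671 genes of at least 5 CPM on average and leaving out genes of the lists used here, were NSD1, WWC3, KIAA0319L, DDI2 and TIMP2. Their centred log2 CPM differed from that of CCN2 by a root mean square of 0.02 to 0.03, against 0.10 for CCN1 and 0.30 for ANKRD1.

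ANKRD1 (chr10:90912096-90921087, reverse strand), a nuclear and sarcomeric ankyrin repeat protein, lay on the other side of the controls. It was measured at 307, 305 and 325 CPM in the controls and at 458, 369 and 339.9 CPM in the libraries labelled BMAL1 knockout. All 3 libraries of the second group lay above the controls, knockout replicate 1 farthest. The log2 fold change was 0.32 (standard error 0.10, 95% interval 0.10 to 0.54), and its adjusted p of 0.131 from edgeR with Benjamini-Hochberg adjustment missed the threshold. Without knockout replicate 1 the log2 fold change was 0.18 (adjusted p = 0.116). With each library's GC trend removed it was 0.28 and was called (adjusted p = 0.0441), and over 12 settings that kept all libraries the adjusted p ran from 0.0441 to 0.184.

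Neighbours of ANKRD1 also tended to lie higher. Of 40 tested neighbours, which span 7.18 Mb, 4 were called higher and 3 lower, beside 1.08% and 1.43% of all loci. Of the 40, 29 had a positive log2 fold change, with a median of 0.15. ANKRD1 lay 0.17 above that median. The part of this region in the difference of ANKRD1 was not tested. Within each library, the ratio of ANKRD1 to CCN2 per kilobase of exon was 2.41, 2.48 and 2.46 in the controls and 4.43, 2.83 and 2.67 in the knockout libraries. These ratios did not overlap between groups (two-sided exact permutation test, p = 0.1, the smallest this design allows).

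AMOTL2 and LATS2, the targets that restrain YAP1, were not called. AMOTL2 (chr3:134355347-134375479, reverse strand), an angiomotin that holds YAP1 at cell junctions, was measured at 309, 318 and 279 CPM in the controls and at 269, 299.8 and 299 CPM in the libraries labelled BMAL1 knockout. The groups overlapped, and the log2 fold change was -0.06 (95% interval -0.24 to 0.11, adjusted p = 0.759 from edgeR with Benjamini-Hochberg adjustment). LATS2 (chr13:20973036-21061586, reverse strand), a kinase that phosphorylates YAP1, was measured at 86.7, 87.7 and 86.5 CPM in the controls and at 78.6, 94.9 and 88.0 CPM in the libraries labelled BMAL1 knockout. The controls lay close together, inside the range of the other group. The log2 fold change of LATS2 was 0.00 (95% interval -0.18 to 0.18), with values of -0.06 to 0.07 when 1 library was left out, so it has no set direction.

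THBS1 was the 1 gene of the 10 called. It lies at chr15:39581079-39599466 on the forward strand and encodes thrombospondin 1, a matrix glycoprotein that binds CD47 and integrins and activates latent TGF-beta. It was measured at 269, 256 and 264 CPM in the controls and at 184, 199.9 and 205 CPM in the libraries labelled BMAL1 knockout. Every library of the second group lay below every control, and the gap between the groups was wider than the range within either. THBS1 fell by 0.42 on the log2 scale (standard error 0.07, 95% interval -0.58 to -0.26, adjusted p = 0.0124 from edgeR with Benjamini-Hochberg adjustment), and ranked 117 by p-value among the loci tested. In a single simulated draw with changes of about this size, the share of calls that were false ran above the adjusted threshold. That share covers all calls of the draw and is not a rate for THBS1.

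By adjusted p, THBS1 was called in all 12 settings that used every library, with values of 1.59e-06 to 0.0362, but it did not reach the fold change over 2 that the methods require. It was not called when any control was left out, at 0.0650 without control replicate 1, 0.0614 without control replicate 2 and 0.0522 without control replicate 3. Its log2 fold change lay between -0.46 and -0.38 over the 6 fits that left out 1 library. Exons of THBS1 overlap FSIP1 and THBS1-AS1 on the opposite strand, and the strand of counting is not given in the sources used here, so reads of these genes cannot be told apart. FSIP1 held 33 to 81 counts a library, 0.831% of the counts of THBS1 over all libraries, with a log2 fold change of -0.03. The 40 tested neighbours of THBS1 had a median log2 fold change of 0.04.

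THBS1 was set against CCN1 within each library, since both are secreted matricellular targets. Per kilobase of exon, the ratio of THBS1 to CCN1 was 0.159, 0.150 and 0.159 in the controls and 0.111, 0.111 and 0.118 in the knockout libraries. The groups did not overlap, and the mean log2 ratio differed by -0.46 (two-sided exact permutation test, p = 0.1, the smallest this design allows).

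AXL (chr19:41219223-41261766, forward strand), a receptor tyrosine kinase of the TAM family that binds GAS6, was measured at 569, 547 and 544 CPM in the controls and at 389, 451 and 491 CPM in the libraries labelled BMAL1 knockout. All 3 libraries of the second group lay below the controls, knockout replicate 1 farthest. The log2 fold change was -0.32 (standard error 0.09, 95% interval -0.51 to -0.13), and its adjusted p of 0.0857 from edgeR with Benjamini-Hochberg adjustment missed the threshold. AXL was called by DESeq2 (adjusted p = 0.0122) and with the GC trend removed (0.0205), and the adjusted p ran from 0.0122 to 0.129 over the 12 settings that kept all libraries. Without knockout replicate 1 it was called as well, at a log2 fold change of -0.23 and an adjusted p of 0.0372. The 40 tested neighbours of AXL had a median of -0.03, from which AXL differed by -0.29.

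The levels of the 10 genes differed widely per length. As CPM per kilobase of exon, averaged over the 6 libraries, they were ordered as ANKRD1 at 196, CCN1 at 187, AXL at 97.1, CCN2 at 69.2, AMOTL2 at 45.6, YAP1 at 33.0, TEAD1 at 25.7, THBS1 at 25.1, LATS2 at 15.5 and WWTR1 at 4.09. Neighbours in this order overlapped in their ranges over the libraries in 2 cases, ANKRD1 with CCN1 and TEAD1 with THBS1. ANKRD1 ran from 170.2 to 256 and CCN1 from 181 to 198 CPM per kilobase. By group means, both pairs changed order. In the controls CCN1 lay above ANKRD1 (184 against 174) and THBS1 above TEAD1 (28.8 against 25.4). In the knockout libraries ANKRD1 lay above CCN1 (217 against 189) and TEAD1 above THBS1 (26.0 against 21.4). The change for ANKRD1 and CCN1 came mostly from knockout replicate 1 (256 against 181), and in knockout replicate 3 this pair lay nearly level. Together the 10 genes took 0.264% to 0.290% of the counts in each library, with the lowest share in knockout replicate 1.

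Several of the 10 genes share exons with other annotated genes. On the opposite strand, WWTR1 overlaps WWTR1-AS1, CCN2 overlaps LINC01013, and YAP1 and AXL overlap loci without a gene symbol. AMOTL2 overlaps the pseudogene RPL39P5 on its own strand. None of these partners is listed in the count table, and their reads cannot be told apart from those of the named gene. TEAD1, CCN1, ANKRD1 and LATS2 overlap no other exon of the annotation.

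Regulators upstream of YAP1 were read from a list of 23 kinases, adaptors and membrane proteins. Of the 22 tested, edgeR called 0, with 2 at an unadjusted p under 0.05 (a share of 16.9% over all loci), while DESeq2 called 1 and limma-voom 0. The median log2 fold change of the list was -0.09. The smallest p belonged to MAP4K4, a kinase that can activate the LATS kinases, which was measured at 408, 387 and 417 CPM in the controls and at 334, 358 and 352 CPM in the libraries labelled BMAL1 knockout. Its groups did not overlap, and its log2 fold change was -0.22 (95% interval -0.37 to -0.06, adjusted p = 0.144 from edgeR with Benjamini-Hochberg adjustment). DESeq2 called MAP4K4, as did the fit with the GC trend removed, and its adjusted p ran from 0.0433 to 0.292 over the 12 settings with all libraries. MOB1A, a cofactor of the LATS kinases, had a log2 fold change of 0.21 (95% interval 0.03 to 0.38), and the scaffold FRMD6 one of -0.16 (95% interval -0.33 to 0.01). FRMD6 was also called with the GC trend removed (adjusted p = 0.0341, in a range of 0.0341 to 0.491). Its log2 fold change ran from -0.19 to -0.10 with 1 library left out.

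The partners at DNA gave calls in both directions. The list held the other TEAD factors and the VGLL proteins, which bind TEAD as YAP1 does, and of 6 genes tested 1 rose and 1 fell, beside 1.08% of all loci called higher and 1.43% called lower. At an unadjusted p under 0.05 there were 2, against 16.9% of all loci, and DESeq2 called 2 and limma-voom 1. VGLL2 was measured at 12.2, 12.0 and 13.6 CPM in the controls and at 6.79, 7.57 and 8.46 CPM in the libraries labelled BMAL1 knockout. The groups lay well apart, and VGLL2 fell by 0.73 on the log2 scale (standard error 0.12, adjusted p = 0.0114 from edgeR with Benjamini-Hochberg adjustment). It was not called without control replicate 3 (0.0619).

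VGLL3 was measured at 15.0, 13.7 and 18.9 CPM in the controls and at 20.5, 25.2 and 23.7 CPM in the libraries labelled BMAL1 knockout. The groups did not overlap, though control replicate 3 came close to knockout replicate 1. VGLL3 rose with a log2 fold change of 0.54 (SE 0.13) and an adjusted p of 0.0487 from edgeR with Benjamini-Hochberg adjustment, just under the threshold. Its adjusted p was 0.0509 with median-of-ratios size factors, 0.0719 by limma-voom, 0.0531 with the GC trend removed and 0.0640 without robust estimation, in a range of 0.00933 to 0.0719. Without control replicate 1 or 2, or knockout replicate 2 or 3, it was 0.153, 0.20, 0.163 and 0.108. TEAD2, TEAD3 and TEAD4 had log2 fold changes of 0.06, 0.04 and -0.04, VGLL4 had -0.12, and VGLL1 had 0 counts. With 1 library left out, these 4 values ran from 0.01 to 0.10, -0.02 to 0.09, -0.12 to 0.04 and -0.19 to -0.01, so the directions of TEAD3 and TEAD4 are not set.

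Of 16 further published targets of YAP and TAZ, all tested, 2 rose and 3 fell, beside 1.08% of all loci called higher and 1.43% called lower, with a list median of -0.17. At an unadjusted p under 0.05 there were 8, against 16.9% of all loci, and DESeq2 called 6 and limma-voom 5. DOCK5 had a log2 fold change of -0.28 (adjusted p = 0.0816 from edgeR with Benjamini-Hochberg adjustment) and was called by DESeq2 (0.0236) and with the GC trend removed (0.0174), in a range of 0.0174 to 0.178. IGFBP3, which binds insulin-like growth factors, was measured at 27.2, 25.8 and 24.8 CPM in the controls and at 40.8, 44.5 and 46.4 CPM in the libraries labelled BMAL1 knockout. It lay higher in all 3 libraries and rose with a log2 fold change of 0.76 (SE 0.09, adjusted p = 0.00162 from edgeR with Benjamini-Hochberg adjustment). GADD45A, a DNA damage gene and p53 target as well, was measured at 101, 107 and 106 CPM in the controls and at 136, 143 and 131 CPM in the libraries labelled BMAL1 knockout. It rose with a log2 fold change of 0.39 (adjusted p = 0.0163 from edgeR with Benjamini-Hochberg adjustment). That adjusted p was 0.0944, 0.0819 and 0.0522 without control replicates 1, 2 and 3 and 0.0964 without knockout replicate 2.

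ASAP1, a GTPase-activating protein of focal adhesions, was measured at 334, 324 and 336 CPM in the controls and at 223, 242 and 249.5 CPM in the libraries labelled BMAL1 knockout. The groups lay far apart, and ASAP1 fell by 0.48 on the log2 scale (adjusted p = 0.00644 from edgeR with Benjamini-Hochberg adjustment). NT5E, the ecto-5′-nucleotidase CD73, was measured at 56.6, 53.5 and 62.0 CPM in the controls and at 41.3, 23.9 and 27.4 CPM in the libraries labelled BMAL1 knockout, where knockout replicate 1 was the highest. It fell by 0.89 (adjusted p = 0.0287 from edgeR with Benjamini-Hochberg adjustment), and had a log2 fold change of -1.16 without knockout replicate 1. Its adjusted p was 0.119, 0.0876 and 0.107 without control replicates 1, 2 and 3, 0.111 without knockout replicate 3 and 0.0730 with no filter on low counts, where the settings with all libraries ran from 1.19e-05 to 0.0730.

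F3, the tissue factor that starts coagulation, was measured at 98.9, 100.3 and 106 CPM in the controls and at 77.9, 78.3 and 82.8 CPM in the libraries labelled BMAL1 knockout. The groups did not overlap, and F3 fell by 0.35 on the log2 scale (adjusted p = 0.0291 from edgeR with Benjamini-Hochberg adjustment). It was called without knockout replicate 1, but not without control replicates 1, 2 and 3 (0.0887, 0.125 and 0.0852) nor without knockout replicates 2 and 3 (0.139 and 0.0529). A block for replicate number also ended the call (0.0785).

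**Figure D4:**
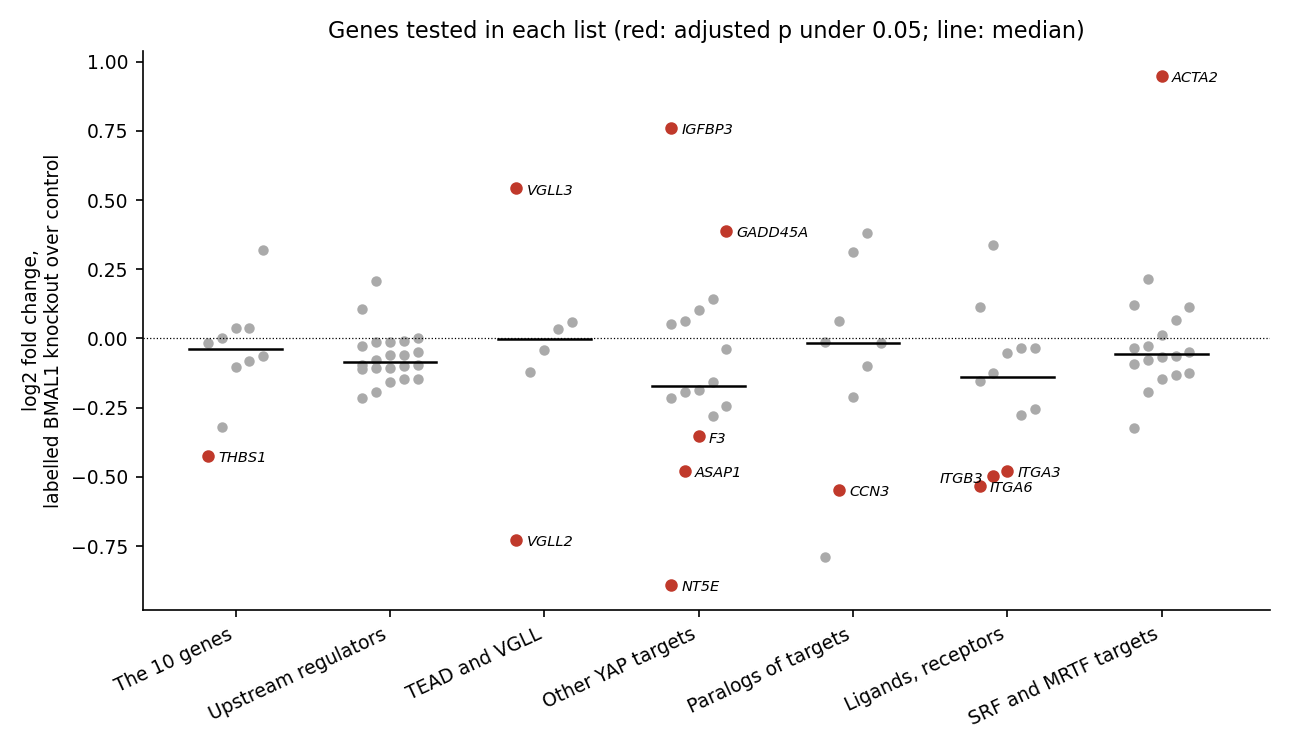
Log2 fold change of each tested gene in the 10 genes and in 6 lists of the pathway, the libraries labelled BMAL1 knockout over control; red points are genes with an adjusted p under 0.05 and black lines are medians. THBS1 is the red point among the 10 genes, the upstream regulators have no red point, and the other YAP targets have 2 above and 3 below 0.

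Of 12 paralogs of the target genes, 9 were tested and 1 was called lower, beside 1.43% of all loci. At an unadjusted p under 0.05 there were 2, against 16.9% of all loci, and DESeq2 called 1 and limma-voom 1. CCN3, another secreted CCN protein, was measured at 29.1, 25.6 and 32.2 CPM in the controls and at 18.9, 20.1 and 20.5 CPM in the libraries labelled BMAL1 knockout. Every knockout library lay below the controls, and CCN3 fell by 0.55 on the log2 scale (standard error 0.10, adjusted p = 0.0169 from edgeR with Benjamini-Hochberg adjustment). Its adjusted p was 0.0614 and 0.0732 without control replicates 1 and 3 and 0.0514 without knockout replicate 2. Whether CCN3 differed more than CCN1 and CCN2 was not tested. THBS2 had a log2 fold change of -0.79 (95% interval -1.45 to -0.13) at a level of at most 1.78 CPM, and ANKRD2 one of 0.31 (95% interval -0.16 to 0.79). With 1 library left out, ANKRD2 ran from 0.15 to 0.46.

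Among receptors of THBS1 and the CCN proteins, 3 integrin chains fell. Of 12 genes tested in the list of ligands and receptors, ITGA6, ITGA3 and ITGB3 were called, all lower, beside 1.43% of all loci, with a list median of -0.14. At an unadjusted p under 0.05 there were 6, against 16.9% of all loci, and DESeq2 called 4 and limma-voom 3. ITGB5 had a log2 fold change of -0.26 (adjusted p = 0.161 from edgeR with Benjamini-Hochberg adjustment) and was called with the GC trend removed (0.0383). ITGA6 was measured at 91.0, 90.7 and 95.1 CPM in the controls and at 64.7, 64.2 and 62.5 CPM in the libraries labelled BMAL1 knockout. It fell by 0.53 on the log2 scale (standard error 0.07, adjusted p = 0.00310 from edgeR with Benjamini-Hochberg adjustment), with the groups far apart. ITGA3 was measured at 607, 622 and 601 CPM in the controls and at 398, 437 and 478 CPM in the libraries labelled BMAL1 knockout. It fell by 0.48 (adjusted p = 0.0102 from edgeR with Benjamini-Hochberg adjustment), without overlap of the groups, and its adjusted p was 0.0730 without control replicate 2 and 0.0568 without control replicate 3.

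ITGB3 was measured at 110.3, 112 and 131 CPM in the controls and at 72.0, 85.0 and 93.4 CPM in the libraries labelled BMAL1 knockout. All 3 knockout libraries lay below the controls, and ITGB3 fell by 0.50 on the log2 scale (adjusted p = 0.0300 from edgeR with Benjamini-Hochberg adjustment). Its adjusted p was 0.0527, 0.0854 and 0.114 without control replicates 1, 2 and 3, and 0.0676 without knockout replicate 2. The AXL ligands lay on opposite sides of 0: GAS6 had a log2 fold change of -0.28 (95% interval -0.47 to -0.08) and PROS1 one of 0.34 (95% interval 0.13 to 0.54). Neither was called by edgeR, both were called with the GC trend removed, and PROS1 by DESeq2, with adjusted p-values of 0.0158 to 0.250 for GAS6 and 0.0166 to 0.167 for PROS1 over the settings with all libraries.

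Genes of the actin cytoskeleton under SRF and its MRTF cofactors, which share targets with YAP, gave 1 higher call among 18 tested, beside 1.08% of all loci, with a list median of -0.06. At an unadjusted p under 0.05 there were 3, against 16.9% of all loci, and DESeq2 called 2 and limma-voom 1. ACTA2, smooth muscle actin, was measured at 1.79, 2.02 and 1.64 CPM in the controls and at 3.75, 3.57 and 3.21 CPM in the libraries labelled BMAL1 knockout. The groups did not overlap, and ACTA2 rose from this low level with a log2 fold change of 0.95 (SE 0.18, adjusted p = 0.0188 from edgeR with Benjamini-Hochberg adjustment). Its exons overlap those of FAS, which was also called higher, and ACTA2-AS1 on the opposite strand, and a locus without a gene symbol on its own strand, from which its reads cannot be told apart. The adjusted p was 0.0670, 0.0529 and 0.0785 without control replicates 1, 2 and 3, and 0.0657 without knockout replicate 2. FLNA, which crosslinks actin, had a log2 fold change of -0.32 (95% interval -0.55 to -0.09), or -0.21 without knockout replicate 1, and TAGLN one of 0.21 (95% interval 0.04 to 0.38). Both were called with the GC trend removed, FLNA also by DESeq2 and TAGLN without knockout replicate 1 (0.0481), with adjusted p-values of 0.0209 to 0.186 for FLNA and 0.0462 to 0.341 for TAGLN over the settings with all libraries.

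Of the epithelial markers, which thyroid follicular cells share, and of the immune markers 1 each was called, both lower, where 1.43% of all loci were. Of 7 epithelial markers, 6 were tested and 1 was called, KRT18, whose exons overlap KRT8 on the opposite strand and which fell by 0.50 on the log2 scale (adjusted p = 0.00583 from edgeR with Benjamini-Hochberg adjustment, 0.0524 without control replicate 2). The epithelial list summed to 2991, 3046 and 2898 CPM in the controls and to 2541, 2483 and 2564 CPM in the knockout libraries, with KRT8 the most abundant gene and EPCAM and CDH1 below 1 CPM. KRT8 had a log2 fold change of -0.28 (adjusted p = 0.0507 from edgeR with Benjamini-Hochberg adjustment) and was called by DESeq2 (0.000497), with the GC trend removed (0.0236), without robust estimation (0.0369) and without knockout replicate 1 (0.00662), in a range of 0.000497 to 0.131 over the settings with all libraries. The other 4 tested epithelial markers were not called and had 95% intervals that included 0, KRT7 at 0.10 (-0.06 to 0.26), KRT19 at 0.23 (-0.07 to 0.52), CLDN4 at 0.59 (-0.06 to 1.25) and EPCAM at 1.57 (-0.34 to 3.48), and the list median was 0.16. With 1 library left out, KRT7 ran from 0.06 to 0.13 and KRT19 from 0.13 to 0.31. CLDN4 ran from 0.36 to 0.79 and EPCAM, with 0 counts in 2 controls, from 0.99 to 6.70. Of 6 immune markers, 3 were tested and 1 was called, PTPRC, at 6.41, 6.25 and 6.54 CPM in the controls and 2.51, 1.97 and 2.60 CPM in the knockout libraries. CD68 had a log2 fold change of -0.27 (95% interval -0.55 to 0.00) and CD14 one of 0.99 (95% interval -0.05 to 2.02). The immune list summed to 19.2, 19.8 and 18.1 CPM in the controls and to 14.1, 12.4 and 13.2 CPM in the knockout libraries, with CD68 the most abundant gene, CD3E at 0 counts and CD79A and NKG7 below 1 CPM. The part of these markers in the fall of THBS1 was not tested.

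Other marker lists held no call by edgeR. The fibroblast list summed to 922, 926 and 789.6 CPM in the controls and to 718, 935 and 989 CPM in the knockout libraries, nearly all of it COL1A1, with LUM and DCN at 0 counts. The smooth muscle list summed to 70.6, 66.6 and 55.7 CPM against 64.8, 72.4 and 70.5 CPM, most of it SMTN. Of 5 endothelial markers, 4 were below 1 CPM in all libraries. DESeq2 and limma-voom also called 0 of these genes and of the thyroid markers, and at an unadjusted p under 0.05 there were 2 thyroid, 1 smooth muscle, 0 fibroblast and 0 endothelial genes, where 16.9% of all loci had such a p.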

How the data were processed

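RNA was measured in 6 libraries, grouped by their labels, 3 a group. The authors deposited raw counts of uniquely mapped reads per gene, after read trimming and mapping to hg38. The submitters' processing notes name fastp 0.20.1 and HISAT2 2.0.4, and the annotation and the strand of counting are not given in the sources used here. Counts were fitted with edgeR 4.0.16 in R 4.3.3 (TMM, filterByExpr, robust quasi-likelihood F-test, two-sided), with Benjamini-Hochberg adjustment over the 14860 loci kept. The fits were tested on simulated data, drawn with the same spread beyond counting at every locus. In the draw with changes of about the size of that of THBS1, edgeR missed most of them. The changed loci were picked at random over many levels, so this is not a rate for the genes described here. A gene not called may still differ. The share of all calls in that draw that were false ran above the adjusted threshold. It comes from a single draw and is not a rate for any named gene. A call of about that size may still be false, that of THBS1 included. Total counts ranged from 26893063 to 43563391, and the spread between libraries, not counting, limited the precision of abundant genes. Coordinates, exons and overlaps came from GENCODE v44, in which 20018 symbols were found, and promoter windows from RefSeq (GRCh38.p14).

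The alternatives tried were library size only, size factors by median of ratios, no filter on low counts, at least 10 counts in every library, DESeq2 1.42.0, limma-voom (limma 3.58.1), a replicate block, thinning to the smallest total, a fold change over 2 with p under 0.01 as in the methods, and leaving out each library. After seeing the data, 4 more were added: removal of the GC trend (GC content known for 91.4% of the loci tested), a fit without robust estimation, robust dispersion estimation and library totals taken before the filter. The last 3 were tried because the number of calls differed from that of an earlier fit of these data. None gave the earlier number, the reason was not found, and the planned settings were kept.

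The members and lists were chosen with earlier results of these data known. Named were the 10 genes and BMAL1; of each other pathway list, the genes with an adjusted p under 0.05 (up to 8) or, where fewer than 3 passed, those with the smallest p up to 3; and the 5 genes outside the lists most like CCN2. TEAD2, TEAD3, TEAD4, VGLL1, GAS6, PROS1, DOCK5, ITGB5 and the markers were named outside this rule, after their values were seen, as were overlapping and neighbouring genes. Part of the marker results is not reported here.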

Additional observations from a re-analysis of the deposited data

How the results depend on the processing

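Among the 10 genes, WWTR1 had a log2 fold change of 0.01 with library size only, and CCN2 ran from -0.14 to 0.01 with 1 library left out. LATS2, at 0.00, had no direction to keep, and the other 7 kept theirs. TEAD1 ran from 0.01 to 0.08, CCN1 from 0.01 to 0.07 and AMOTL2 from -0.11 to -0.01 with 1 library left out. DESeq2 called 2 lower and the fit with the GC trend removed 2 lower and 1 higher. The thresholds of the methods gave 0 lower, and leaving out 1 library 0 to 2. AXL was called at -0.32 by DESeq2 and at -0.30 with the GC trend removed, and ANKRD1 at 0.28 with the GC trend removed. With 1 library left out, AXL ran from -0.40 to -0.23, THBS1 from -0.46 to -0.38 and BMAL1 from 0.50 to 0.70. Over all loci, DESeq2 called 256 higher and 378 lower, limma-voom 102 higher and 153 lower, the fit with the GC trend removed 498 higher and 610 lower, and the thresholds of the methods 94 higher and 48 lower. With 1 library left out there were 46 to 293 higher and 67 to 340 lower, the most without knockout replicate 1 and the fewest without control replicate 2. Without robust estimation, tried after seeing the data, 123 were called higher and 172 lower, and THBS1 was called. Robust dispersion estimation and library totals taken before the filter, also tried then, left both counts as they were. Same-numbered libraries did not deviate together (correlations across loci of -0.0896, -0.0517 and -0.00471). This gives no sign of pairing by number, but it cannot exclude that same-numbered samples were handled together. With the replicate block, 132 loci were called higher and 145 lower, THBS1 was called (adjusted p = 0.0362) and F3 was not (0.0785). The cause was not tested for any of these changes.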
